A study of Mus musculus and Acomys cahirinus with 25 samples.

Results

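The genes described here are 10 genes of transforming growth factor beta (TGF-beta) and activin signaling. They are the 3 TGF-beta ligands Tgfb1, Tgfb2 and Tgfb3, the activin subunit genes Inhba and Inhbb, the receptors Tgfbr1 and Tgfbr2, the activin-binding protein Fst, and the intracellular Smads Smad3 and Smad7. They were taken by symbol from count files of 24500 gene rows, and all 10 were found in each of the 25 libraries. The study asked how wounds regenerate hair follicles, in the laboratory mouse (lab mouse, Mus musculus) and in the African spiny mouse Acomys cahirinus, and RNA was sequenced from separated epidermis and dermis. Lab mouse wounds were sampled at post-wound day 14, when a punch divided the wound center from the wound margin. The lab mouse groups were wild-type (WT) center epidermis (2 libraries), WT margin epidermis (2), WT center dermis (5), WT margin dermis (2) and center dermis of the knockout labelled KO (2). KO stands for K14-Cre-Twist1, in which a keratinocyte Cre driven by a keratin 14 promoter deletes the transcription factor Twist1, so that the dermal cells themselves were not the target of the deletion. Its control was the Twist1+/+ wild type. Spiny mouse libraries, all labelled WT, came from unwounded skin at day 0 (1 of epidermis, 2 of dermis). Those of day 14 (2 and 1), day 21 (2 and 2) and day 28 (1 and 1) came from whole wounds. These days are those of the sample labels, and the study's own listing of the same libraries gives somewhat different days. Per the study's methods, C57BL/6J was the primary lab mouse strain. The background strain of the K14-Cre-Twist1 mice and of their Twist1+/+ controls is not given there. Lab mice were wounded at 4 weeks of age and spiny mice at 2 months, and both sexes were used. Of the 5 WT center dermis libraries, replicates 1 and 2 were compared with the margin and replicates 3 to 5 with the knockout. This division is not in the sample labels and was taken from the way libraries were clustered together in the original work.

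TGF-beta ligands are secreted in a latent form that has to be released from the matrix before it can bind. Active ligand brings together the type II receptor encoded by Tgfbr2 and the type I receptor encoded by Tgfbr1, which phosphorylates Smad2 and Smad3, and these enter the nucleus with Smad4. Activins are dimers of the chains encoded by Inhba and Inhbb, use other receptors but the same Smads, and are trapped outside the cell by follistatin, the product of Fst. Smad7 is induced by the pathway and blocks the receptors. In skin, the pathway is known for restraining keratinocyte growth, for matrix production by fibroblasts and for its part in wound repair and hair follicle formation.

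Promoters of 7 of the 10 genes were held in the RefSeq table used here. Those of Tgfb1, Tgfb2 and Inhba are shown because these ligand genes recur in the comparisons that follow and their start regions differ in base composition. The sequences are the 180 bases before the RefSeq start (GRCm38.p6, read along the gene's strand), and capitals mark TATAAA, the core of a TATA box. Tgfb1 is at chr7:25686822-25687001 on the plus strand, Tgfb2 at chr1:186705990-186706169 on the minus strand and Inhba at chr13:16011671-16011850 on the plus strand. The Tgfb2 and Inhba starts lie inside the span of the whole gene, downstream of its outermost annotated end.
Tgfb1: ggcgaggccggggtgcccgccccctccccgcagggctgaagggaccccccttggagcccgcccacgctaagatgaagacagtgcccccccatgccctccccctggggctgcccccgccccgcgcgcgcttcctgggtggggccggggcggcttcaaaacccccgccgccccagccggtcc
Tgfb2: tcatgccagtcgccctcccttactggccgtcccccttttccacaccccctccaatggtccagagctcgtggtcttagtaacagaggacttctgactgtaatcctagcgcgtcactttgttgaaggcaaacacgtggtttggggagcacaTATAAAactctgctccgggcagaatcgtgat
Inhba: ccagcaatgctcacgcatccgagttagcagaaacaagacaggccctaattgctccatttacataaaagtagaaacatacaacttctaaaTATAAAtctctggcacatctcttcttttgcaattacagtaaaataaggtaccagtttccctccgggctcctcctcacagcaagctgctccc
G and C made up 78.3% of the Tgfb1 stretch, 53.3% of that of Tgfb2 and 43.3% of that of Inhba, against a median of 53.3% over 32851 promoters. TATAAA was found 31 to 26 bases before the start of Tgfb2 and 91 to 86 bases before that of Inhba, and 12.4% of all promoters held it on either strand within 250 bases before the start. The Smad-binding core CAGAC was found at 2 places in the 250 bases of Tgfb2, beyond the part shown, and in 42.2% of all promoters. The AP-1 motif TGANTCA, present in 6.75% of promoters, was searched on both strands as well and was not found for Tgfb1, Tgfb2 or Inhba. These matches are descriptions of the letters only.

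Reads on genes ranged from 19413261 to 86532134 per lab mouse library and from 5669760 to 34751956 per spiny mouse library. Values are given as CPM, the counts of a gene scaled to the same total of reads on genes in every library. A detection floor of 3 counts was used, equal to 0.0347 to 0.529 CPM depending on the library, and it covers counting error only. Spiny mouse reads were aligned to the lab mouse genome, and 38.0% to 60.5% of them were set aside for low alignment quality, against 23.3% to 34.4% in the lab mouse, so levels were not compared between species. Marker sums were highest in the labelled layers, though not absent from the other. Summed keratinocyte markers (10 genes) lay between 39283 and 208871 CPM in epidermis. In dermis they summed to 13.1 to 33687 CPM in the lab mouse, highest in KO replicate 2. In spiny mouse dermis they summed to 699 to 10914 CPM, highest at day 0. Summed fibroblast markers (10 genes) lay between 67152 and 151319 CPM in all dermis libraries and between 233 and 5020 CPM in epidermis. Libraries that stood apart were KO replicate 2, where 434 of 9577 genes with at least 100 counts in every other lab mouse dermis library had 0 counts, and margin epidermis replicate 1, where the same was true of 50 of 10711 genes. Inhba had 0 counts in both, and it was 1 of the 434 genes in the KO library but, having under 100 counts in the other margin library, none of the 50. In the remaining libraries this number was at most 4. The study describes its RNA-seq replicates as independent, but no source used here ties single libraries to animals, so p-values measure the spread between these libraries. In such bulk samples fewer cells of a type cannot be told apart from less RNA per cell.

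The order of the 10 genes by level per kilobase of exon differed between the layers. In the lab mouse dermis (9 libraries, of which 2 were KO), Tgfbr2 was highest, with a median of 65.3 CPM per kb and a range of 45.3 to 79.2. Tgfb3 followed at 35.7 (15.7 to 60.2) and Tgfb1 at 29.8 (15.0 to 58.9), ranges that overlapped each other. Inhba (2.90, 0 to 5.94) and Smad7 (2.27, 0.662 to 4.41) were the lowest and overlapped as well. The low ends of Tgfbr2, Tgfb3 and Inhba were those of KO libraries, with Inhba at 0 in KO replicate 2. In the lab mouse epidermis (4 libraries), Tgfb1 (9.27, 3.69 to 15.2) and Tgfbr2 (8.51, 7.04 to 9.90) led with overlapping ranges, and Inhba was last at 0.262 (0 to 0.626). In the spiny mouse dermis (6 libraries), with lab mouse exon lengths used for want of its own, Tgfb1 led at 50.1 CPM per kb (26.3 to 70.3), Fst was the next at 32.1 (18 to 40.1), and Inhba was last at 2.63 (0.221 to 3.98). Tgfb1 (20.9, 6.56 to 26.9) and Fst (13.2, 7.41 to 32.6) also led the spiny mouse epidermis, and Inhba was again last at 0.134 (0.0849 to 0.450).

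Tgfb3, Tgfbr2 and Inhba were lower in epidermis than in dermis in both species. In the lab mouse (4 against 4 WT libraries, with the wound region in the fit), 4 of the 10 genes were lower in epidermis at an FDR (Benjamini-Hochberg adjusted p of the edgeR quasi-likelihood test) under 0.05 and none was higher, where 29.7% of the 14077 tested genes were lower and 30.3% higher. Tgfb3 was lower by a log2 fold change of -3.04 ± 0.36 (SE, FDR = 0.000166), with 3.60 to 13.8 CPM in epidermis and 86.1 to 125 CPM in dermis. Tgfbr2 was lower by -2.14 ± 0.21 (FDR = 5.88e-05), and its levels of 57.7 to 81.1 CPM and 420.2 to 648 CPM did not come near each other. The activin genes fell with them, Inhba by -3.16 ± 0.91 (FDR = 0.0148) and Inhbb by -1.42 ± 0.36 (FDR = 0.00828). Tgfb1 was -0.67 ± 0.31 (FDR = 0.0897), and Tgfb2, Tgfbr1, Fst, Smad3 and Smad7 lay between -0.55 and 0.73 with an FDR above 0.05. The same values were also taken within each region. Inhba was -1.57 in the center libraries alone and -5.60 in the margin libraries alone, Tgfb3 was -2.24 and -3.83, and Inhbb lost its call in the center (-0.74, FDR = 0.0644). Leaving out either margin epidermis library or margin dermis replicate 2 brought Inhba to between -2.46 and -2.53, still called. Smad7 was called higher in epidermis in the center libraries alone (1.51, FDR = 0.0119), with all 5 WT center dermis libraries (1.22, FDR = 0.0447) and without margin epidermis replicate 1 (1.11, FDR = 0.0221). Epidermis was read as paired ends and dermis as single ends, so layer and read type cannot be told apart in the lab mouse. Scaling by library size alone moved the median of all genes by -0.81 in this comparison; 7 of the 10 genes were then lower, and of all tested genes 2236 were higher and 6761 lower, against 4272 and 4179.

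The spiny mouse (6 against 6 libraries, with the day in the fit) had 7 of the 10 genes lower in epidermis and none higher, where 27.6% of 13699 tested genes were lower and 25.3% higher. Of the ligands, Tgfb1 was lower by -1.39 ± 0.28 (FDR = 0.00176), Tgfb2 by -2.99 ± 0.48 (FDR = 0.000347) and Tgfb3 by -4.15 ± 0.81 (FDR = 0.00134). Inhba was lower by -3.56 ± 0.53 (FDR = 0.000208). Its median was 0.856 CPM in epidermis, with a range of 0.543 to 2.87, and 16.8 CPM in dermis, with a range of 1.41 to 25.4, so the layers overlapped only through an unwounded dermis library. Both receptors were lower, Tgfbr1 by -0.81 ± 0.16 (FDR = 0.00138) and Tgfbr2 by -1.86 ± 0.35 (FDR = 0.00109), and so was Smad3 by -0.96 ± 0.37 (FDR = 0.0454), a call lost when any of 9 of the 12 libraries was left out (FDR = 0.0569 to 0.143). Inhbb, Fst and Smad7 did not pass, at -0.75 ± 0.46, -0.67 ± 0.29 and 0.49 ± 0.32. In the day 21 libraries alone, the day with 2 libraries of each layer, 9 of the 10 genes were lower, where 33.5% of 14966 tested genes were, and Inhbb (-1.50, FDR = 0.0122) and Fst (-1.63, FDR = 0.000316) were among them. Inhba was then -5.12, Tgfbr2 -2.93 and Smad3 -2.25. Inhbb (-1.41, FDR = 0.00311) and Fst (-0.85, FDR = 0.0393) also passed without the day 0 epidermis library, and Tgfb3 was -3.10 without the day 14 dermis library. The plot of layer differences sets both species side by side.

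**Figure D1:**
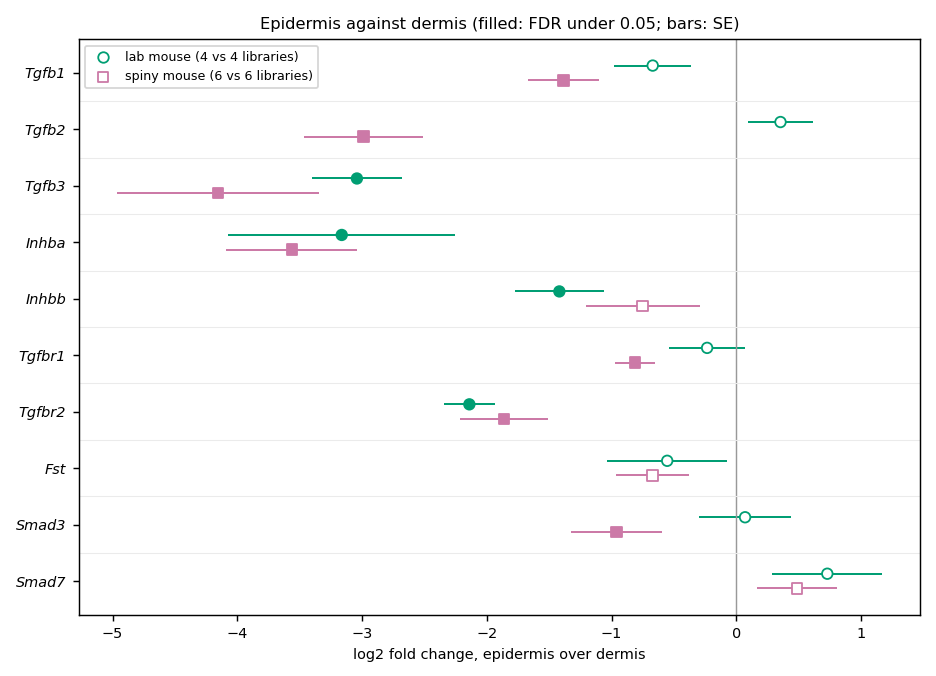
Log2 fold change of epidermis over dermis (x axis) for each of the 10 genes (y axis) in the lab mouse (circles, 4 against 4 libraries) and the spiny mouse (squares, 6 against 6), with bars of 1 SE and filled symbols at an FDR under 0.05. Tgfb3, Tgfbr2 and Inhba are filled on the left in both species, and Smad7 is to the right of 0 in both without passing the test.

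Other genes of the pathway, 59 in all and listed by role, split by layer in both directions. In the lab mouse, 51 of them were tested, 14 were higher in epidermis and 25 lower, with a median log2 fold change of -0.87 against -0.02 over all genes. All tested genes were called higher in 30.3% and lower in 29.7% of cases. For the spiny mouse, 50 were tested, 11 were higher and 26 lower, with a median of -1.09 against 0.01. The shares over all tested genes were 25.3% higher and 27.6% lower there. Itgb6, a chain of the epithelial integrin that activates latent TGF-beta, was the most strongly higher pathway gene in epidermis in both species, with 13.4 to 39.0 CPM against 0 to 5.77 CPM in the lab mouse (FDR = 0.0118, 0 counts in the center dermis) and a log2 fold change of 4.61 ± 0.55 in the spiny mouse. It was followed by the cell cycle inhibitor genes Cdkn1a (3.93 and 2.38) and Cdkn2b (2.84 and 1.94), which TGF-beta is known to induce. Acvr1b, the activin type I receptor, was higher in lab mouse epidermis by 2.78 ± 0.31 and Zfyve9, which presents Smads to the receptor, by 2.71 ± 0.39. In the spiny mouse the next were the early response gene Klf10 (2.24 ± 0.21) and the activin type II receptor gene Acvr2a (1.18 ± 0.24). Fstl1 (-7.00), the smooth muscle gene Tagln (-5.96), Ctgf (-5.73), the proteoglycan gene Dcn (-5.73) and the latent TGF-beta binding protein gene Ltbp2 (-5.72) were the most strongly lower in lab mouse epidermis. In the spiny mouse these were Col1a1 (-9.75), Acta2 (-8.06), Tagln (-7.68), the endothelial co-receptor gene Eng (-7.57) and Dcn (-7.17). The endothelial, smooth muscle and fibroblast marker lists were lower in epidermis, with 8 of 8, 5 of 6 and 10 of 10 genes called lower in the lab mouse. These lists share genes with those just named, Tagln and Acta2 being smooth muscle markers and Col1a1 and Dcn fibroblast markers.

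Whether the wound center differs from the wound margin was the study's main comparison in the lab mouse. In epidermis, 8 of the 10 genes had positive log2 fold changes in the center, with a median over the 10 of 1.24 against -0.02 over all genes, but only Inhba passed the test. At an FDR under 0.05, 0.882% of the 14165 tested genes were higher in the center and 0.36% lower. Inhba had 3.18 and 4.0 CPM in the 2 center libraries (216 and 221 counts) and 0 and 0.162 CPM in the 2 margin libraries (0 and 14 counts), a log2 fold change of 4.87 ± 0.84 (FDR = 0.0488). The margin library at 0 counts was the one in which 50 otherwise well covered genes were at 0; without it the log2 fold change was 4.41 (FDR = 0.000124). Without the other margin library no usable size was left, the lone margin library being at 0. The call was lost when either center library was left out (FDR = 0.132 and 0.227) and under the older edgeR 3 estimate (FDR = 0.164), which is the default of the version used, had been fitted first and called no gene at all here, although 2893 had an unadjusted p under 0.05.

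None of the TGF-beta ligands passed the test in the epidermis. Tgfb1 measured 27.3 and 33.0 CPM in the center and 8.02 and 13.0 CPM in the margin, a log2 fold change of 1.40 ± 0.31 (FDR = 0.0936). Tgfb3 measured 13.8 and 11.2 CPM in the center and 3.60 and 6.01 CPM in the margin (1.24 ± 0.36, FDR = 0.136). Tgfb2 measured 18.4 and 21.6 CPM against 21.4 and 12.1 CPM, with overlapping groups (0.17 ± 0.38, FDR = 0.814). Inhbb, the other activin subunit, measured 9.53 and 8.97 CPM against 3.74 and 3.58 CPM (1.25 ± 0.35, FDR = 0.13). Without adjustment, 6 genes had an edgeR p under 0.05, all higher in the center, namely Tgfb1, Tgfb3, Inhba, Inhbb, Smad3 and Smad7. Of all tested genes, 13.1% had such a p and were higher, and 10.4% had it and were lower. DESeq2 called 5 of the 6, all but Inhbb, and 6.52% of the 14315 genes it tested as higher.

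The receptors had overlapping groups in the epidermis. Tgfbr2 measured 71.0 and 68.3 CPM in the center epidermis and 81.1 and 57.7 CPM in the margin, so that the center values lay inside the margin range (-0.11 ± 0.27, FDR = 0.833). Tgfbr1 measured 37.2 and 38.7 CPM against 69.6 and 32.8 CPM (-0.55 ± 0.41, FDR = 0.452). Neither Smad passed the test. Smad3 measured 36.6 and 54.8 CPM in the center and 21.5 and 8.52 CPM in the margin (1.53 ± 0.52, FDR = 0.166), and the inhibitory Smad7 measured 15.9 and 23.0 CPM against 2.83 and 7.33 CPM (1.76 ± 0.46, FDR = 0.121). Fst measured 19.1 and 21.7 CPM in the center and 12.9 and 6.31 CPM in the margin (1.02 ± 0.43, FDR = 0.222).

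**Figure D2:**
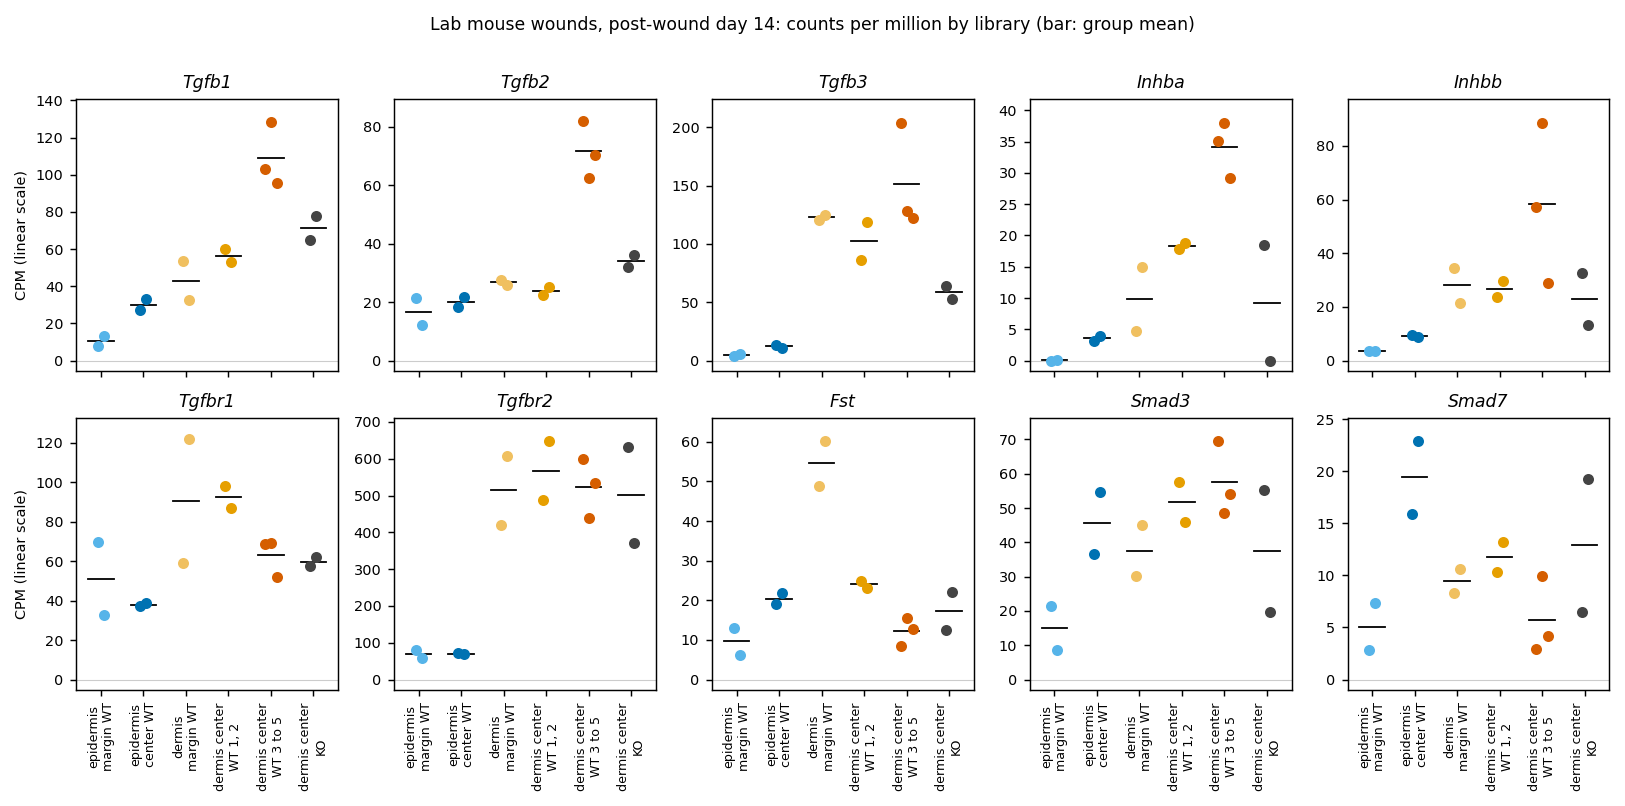
CPM on a linear scale (y axis) of the 10 genes in each of the 13 lab mouse libraries (points), by group (x axis), with a bar at the group mean. Inhba is at 0 in a margin epidermis library and in a KO library, Fst is highest in margin dermis at 48.9 and 60.3 CPM, and Tgfb2 is higher in WT center dermis replicates 3 to 5 (62.5 to 81.8 CPM) than in replicates 1 and 2 (22.3 and 25 CPM).

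Several target genes were also higher in the center epidermis. Of the 59 other pathway genes, 50 were tested, 5 were higher in the center at an FDR under 0.05 and none was lower (3 at an unadjusted edgeR p under 0.05), with a median log2 fold change of 0.49. Over all tested genes, 0.882% were higher and 0.36% lower at that FDR. The 5 called genes were 4 of the 15 target genes and 1 of the extracellular antagonists. Tagln, a gene of contractile cells, rose by 4.64 ± 0.65 (FDR = 0.0394), and Fstl1, a secreted glycoprotein related to follistatin, rose by 2.92 ± 0.42 (FDR = 0.0455). Markers of dermal cells were higher in the center epidermis too, but their lists share genes with the pathway lists. Tagln and Acta2 are both target genes and smooth muscle markers, and Col1a1 is both a target gene and a fibroblast marker. The 10 fibroblast markers summed to 4158 and 5020 CPM in the center and 637 and 1963 CPM in the margin (2 of 10 called higher), the 8 endothelial markers to 28.0 and 39.2 CPM against 1.72 and 6.69 CPM (none called), and the 6 smooth muscle and pericyte markers to 79.7 and 96.7 CPM against 7.22 and 17.7 CPM (2 of 6 called higher). In margin replicate 1 the endothelial markers Egfl7 and Vwf and the smooth muscle markers Myh11, Cnn1 and Des were at 0, and in margin replicate 2 Kdr, Tek, Tie1, Cnn1 and Des were. Their part in the differences of Inhba, Tgfb3 and the targets was not tested.

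In the lab mouse dermis the same comparison called none of the 10 genes, where 0.116% of the 14698 tested genes were higher in the center and 0.735% lower at an FDR under 0.05. At an unadjusted edgeR p under 0.05, 1 member was lower and none was higher, against 10.7% and 5.11% of tested genes. That member was Fst. It measured 24.9 and 23.2 CPM in the center and 48.9 and 60.3 CPM in the margin (-1.09 ± 0.30, FDR = 0.149). DESeq2 called it (FDR = 0.036) together with 3.53% of genes as lower, as did the fit with all 5 WT center libraries (-1.54, FDR = 0.0467), where replicates 3 to 5 had still less Fst, at 8.35, 15.4 and 12.7 CPM. Inhba measured 17.9 and 18.8 CPM in the center and 4.78 and 15.0 CPM in the margin (0.995 ± 0.567, FDR = 0.454). Smad3 (0.56 ± 0.30) and Tgfb1 (0.48 ± 0.31) were positive, and Tgfb2, Tgfb3, Tgfbr1, Tgfbr2, Inhbb and Smad7 lay between -0.18 and 0.40, all with an FDR above 0.4. The 10 keratinocyte markers summed to 611 and 412 CPM in the center and 1926 and 4176 CPM in the margin dermis, with 6 of the 10 called lower in the center, and the part of such cells in the Fst difference was not tested. The 59 other pathway genes, of which 51 were tested, had a median log2 fold change of 0.11 against -0.03 over all genes.

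**Figure D3:**
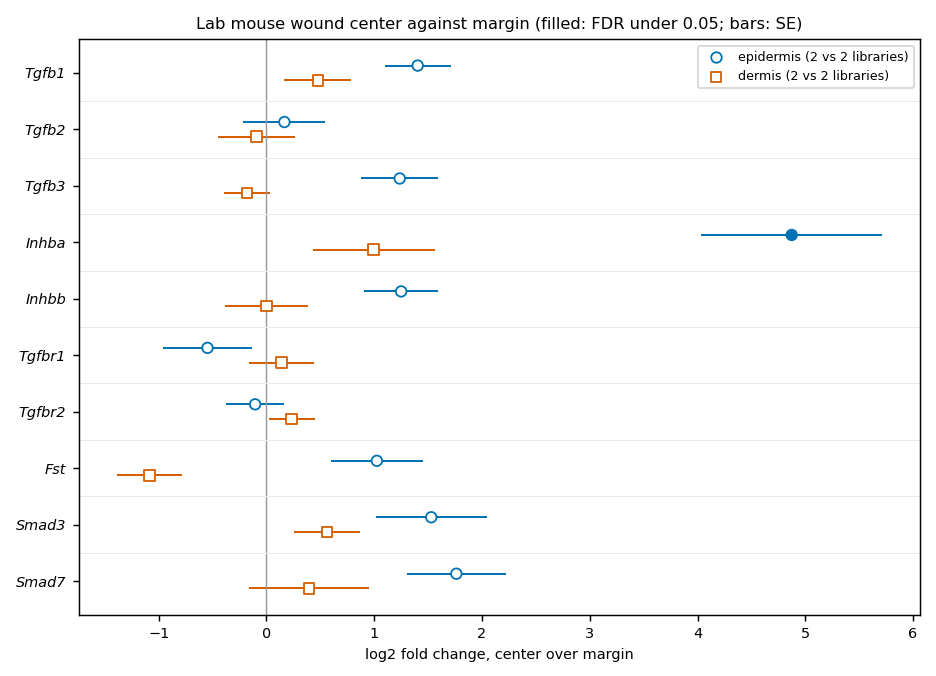
Log2 fold change of wound center over wound margin (x axis) for the 10 genes (y axis) in lab mouse epidermis (circles) and dermis (squares), 2 against 2 libraries each, with bars of 1 SE and filled symbols at an FDR under 0.05. Only Inhba in epidermis, at 4.87, is filled, and Fst lies at 1.02 in epidermis and -1.09 in dermis.

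The difference between the epidermal and the dermal contrast was tested directly. Fst passed, with an interaction of 2.25 ± 0.53 (FDR = 0.0445), since it was higher in the center of the epidermis and lower in the center of the dermis. Of the 15531 tested genes, 3.34% had a positive and 0.135% a negative interaction at an FDR under 0.05, and the median over all genes was 0.31. The call was lost with RLE normalization (2.07, FDR = 0.0839), with the edgeR 3 estimate (2.21, FDR = 0.0858) and when any of 6 of the 8 libraries was left out, the exceptions being the margin epidermis libraries (2.86 without replicate 1). Inhba had an interaction of 4.01 ± 1.25 (FDR = 0.117) and Tgfb3 of 1.57 ± 0.42 (FDR = 0.0745), so that the larger center-margin difference of these genes in epidermis did not pass the test of the difference, although DESeq2 called both, with 6.97% of genes positive. At an unadjusted edgeR p under 0.05, 5 members were positive and none negative, against 13% and 2.99% of tested genes. Of the other pathway genes, 6 of 51 tested had a positive call. Itgb6 had the largest (FDR = 0.00737), without a usable size since it had 0 counts in the center dermis libraries, against 134 and 78 counts in the margin dermis. The keratinocyte markers had 5 of 10 positive calls in the same test and the endothelial markers 5 of 8, and their part in the Fst value was not tested. Tagln (5.12 ± 0.75, FDR = 0.00397) and Eng (3.54 ± 0.77, FDR = 0.0281) came next, and Eng had 0 counts in margin epidermis replicate 1.

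In the knockout, Twist1 did not pass the test in the dermis, at 73.4 and 44.0 CPM in the KO libraries and 57.7, 36.3 and 105 CPM in WT center replicates 3 to 5 (-0.19 ± 0.47, FDR = 0.885). The deletion is in keratinocytes, so this does not check it. None of the 10 genes passed the test, where 0.00706% of the 14163 tested genes were lower in KO and 0.0494% higher, 8 genes in all. None of the TGF-beta ligands passed against WT replicates 3 to 5, a choice of controls that the labels do not give. Tgfb3 measured 64.0 and 53.2 CPM in KO and 204, 129 and 122 CPM in WT (-1.37 ± 0.31, FDR = 0.261). Tgfb2 measured 32.0 and 36.3 CPM against 81.8, 62.5 and 70.2 CPM (-1.08 ± 0.29, FDR = 0.27). Tgfb1 measured 64.8 and 77.6 CPM against 103, 128 and 95.4 CPM (-0.62 ± 0.25, FDR = 0.405). With Inhbb, 4 members were lower at an unadjusted edgeR p under 0.05 and none was higher, against 4.54% and 6.98% of tested genes. DESeq2 called Tgfb2 (FDR = 0.0167) and Tgfb3 (FDR = 0.00646), and 1.31% of genes as lower.

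The activin genes of the knockout comparison rested on the library that stood apart. Inhba measured 18.5 CPM in KO replicate 1 and 0 in KO replicate 2, against 35.2, 37.9 and 29.2 CPM in WT (-1.87 ± 0.89, FDR = 0.452), and -0.84 (FDR = 0.84) without KO replicate 2. Inhbb measured 32.7 and 13.4 CPM against 57.4, 88.6 and 29.0 CPM (-1.32 ± 0.56, FDR = 0.423), and -0.78 without that library. The log2 fold changes of Tgfb2 and Tgfb3 without it were -1.13 and -1.21 (FDR = 0.54 for both). Without KO replicate 1 instead, 5 members were called lower, Tgfb2, Tgfb3, Inhba, Inhbb and Smad3, but so were 12% of the 14915 genes tested, and that fit has KO replicate 2, the library that stood apart, as its only KO library. The receptors had overlapping groups, with Tgfbr1 at -0.09 ± 0.27 and Tgfbr2 at -0.06 ± 0.30. Fst (0.52 ± 0.55), Smad3 (-0.61 ± 0.45) and Smad7 (1.25 ± 0.80) had overlapping groups. Keratinocyte markers summed to 976 CPM in KO replicate 1 and 33687 CPM in KO replicate 2, against 13.1 to 57.2 CPM in WT replicates 3 to 5, of which Krt15 was at 0 in all 3; the part of keratinocyte RNA in these differences was not tested. Of the 59 other pathway genes, 51 were tested and none was called, with 8 lower and 2 higher at an unadjusted edgeR p under 0.05 and a median of -0.34 against -0.07 over all genes.

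The WT center dermis libraries also differed among themselves. Replicates 3 to 5 had 95.4 to 128 CPM of Tgfb1 and 29.2 to 37.9 CPM of Inhba, replicates 1 and 2 had 60.2 and 52.9 CPM and 17.9 and 18.8 CPM, and Tgfb2 was apart in the same way. With all 5 as the control, Tgfb2 in KO was -0.62 (FDR = 0.621) and Tgfb3 -1.15 (FDR = 0.191). KO values of Tgfb1 and Tgfb2 then lay within the range of the WT center.

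Days 14 and 21 were compared in the spiny mouse epidermis (2 against 2 libraries). Of the 10 genes, 3 were higher at day 14 and 1 lower, where 23.4% of 12889 tested genes were higher and 23.2% lower. Tgfb1 measured 52.4 and 38.6 CPM at day 14 and 27.4 and 14.3 CPM at day 21 (1.65 ± 0.30, FDR = 0.00115). Tgfb3 went the other way, with 3 and 1 counts at day 14 (0.233 and 0.0638 CPM) and 213 and 79 counts at day 21 (6.30 and 4.51 CPM). Both day 14 libraries were at or below the floor of 3 counts. Over the pooled libraries, 292 counts at day 21 against 4 at day 14 gave a CPM ratio of 40.6, with an exact 95% interval of 15.7 to 150.1 that covers counting error only, and the edgeR fit gave an FDR of 0.000343. Tgfb2 measured 0.853 and 1.53 CPM against 2.54 and 2.4 CPM (-0.48 ± 0.48, FDR = 0.433). Tgfb1 and Tgfb3 moved in opposite directions between the same libraries.

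Both Smads of the list were higher at day 14 in the spiny mouse epidermis. Smad3 measured 8.68 and 8.42 CPM against 5.70 and 4.68 CPM (1.24 ± 0.29, FDR = 0.00485), and Smad7 31.0 and 31.5 CPM against 26.3 and 22.5 CPM (0.90 ± 0.20, FDR = 0.00366). TMM factors, which correct for a shift of the whole distribution, moved the log2 fold changes of this comparison by 0.55. With library size alone, Tgfb1 (1.097, FDR = 0.0085) and Tgfb3 kept their calls, Smad3 (0.70, FDR = 0.0591) and Smad7 (0.35, FDR = 0.16) lost them, and of all tested genes 1335 were higher and 5722 lower, against 3011 and 2991. The Smad calls were also lost without day 21 replicate 2. The receptors had slightly lower CPM at day 14, Tgfbr1 15.5 and 16.0 against 19.9 and 23.6 and Tgfbr2 23.2 and 18.6 against 25.2 and 31.1, but fitted log2 fold changes of 0.09 and 0.13, with signs that turned with library size alone. Inhba (0.543 and 1.08 CPM against 0.621 and 0.628), Inhbb and Fst had overlapping groups. Myeloid markers summed to 52.3 and 54.4 CPM at day 14 and 85.1 and 101 CPM at day 21 (5 of 10 called higher and 2 lower after TMM), with no gene of this list at 0. Skeletal muscle markers summed to 22.9 and 29.2 CPM against 50.8 and 44.0 CPM, melanocyte markers to 9.22 and 16.3 CPM against 35.4 and 20.2 CPM, and fibroblast markers to 293 and 263 CPM against 514 and 308 CPM. Reads of low alignment quality made up 59.5% and 59.6% of the day 14 libraries and 52.6% and 50.0% of the day 21 libraries, and reads on genes 26.8% and 24.4% against 34.1% and 38.3%. The part of these in the called members was not tested.

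**Figure D4:**
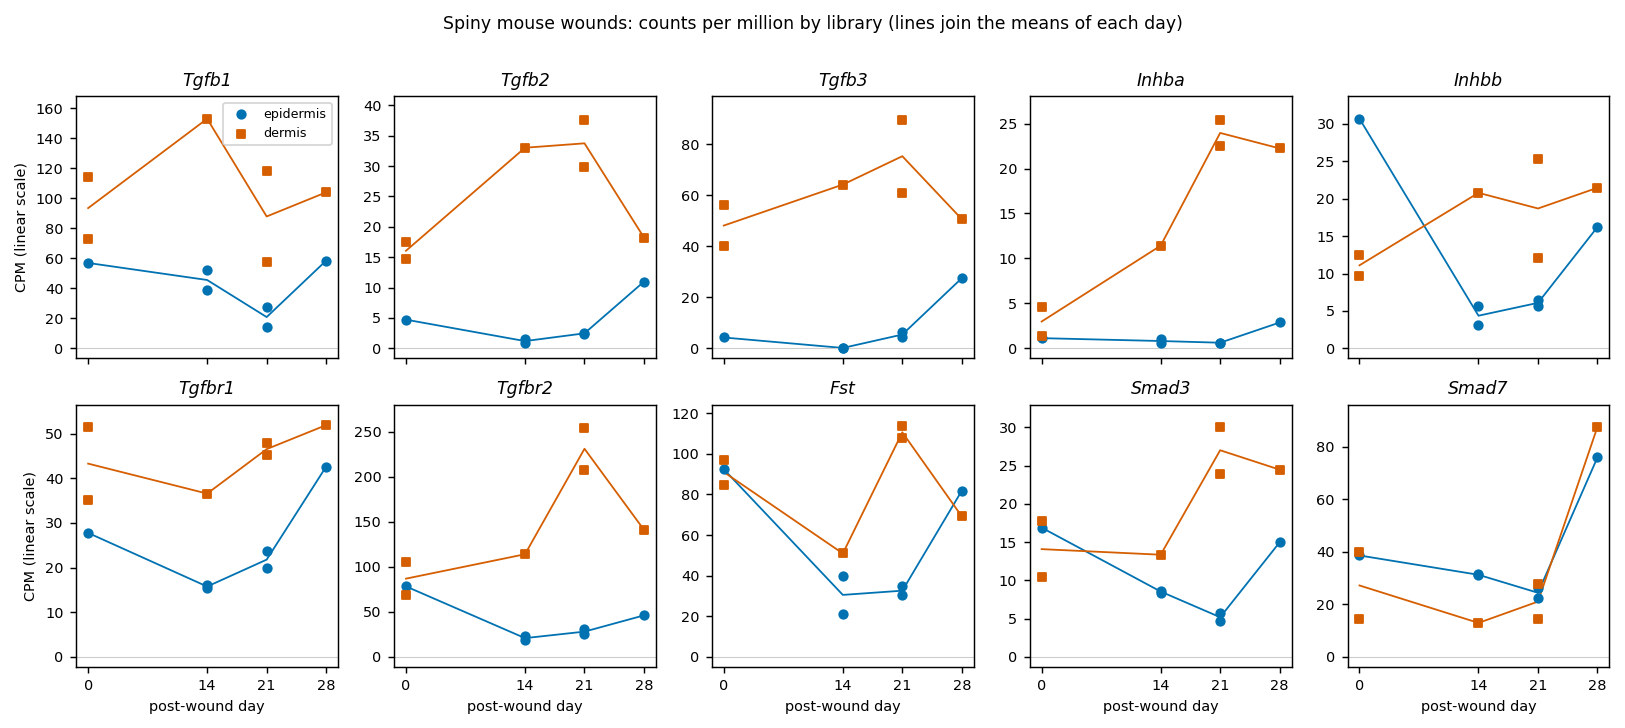
CPM on a linear scale (y axis) of the 10 genes in the 12 spiny mouse libraries by post-wound day (x axis), for epidermis (circles) and dermis (squares), with lines through the day means. Dermal Inhba rises from 1.41 and 4.56 CPM at day 0 to 25.4 and 22.5 CPM at day 21, and epidermal Tgfb3 is near 0 at day 14 and at 27.5 CPM at day 28.

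Of the other pathway genes, 44 were tested between these days, 7 were higher at day 14 and 9 lower. Of all tested genes, 23.4% were higher and 23.2% lower. The median of the pathway genes was 0.09 against -0.04 over all genes. Pmepa1, an induced inhibitor of TGF-beta signaling, was higher by 1.99 ± 0.27 (FDR = 0.00025), with 68.5 to 100.2 CPM at day 14 and 23.1 to 38.4 CPM at day 21. Fstl1 was higher by 1.28 ± 0.19 (FDR = 0.000428). The activin antagonist gene Fstl3 (-2.02 ± 0.55, FDR = 0.0111), the matrix gene Postn (-1.58 ± 0.20, FDR = 0.000159) and the activin receptor gene Acvr1b (-1.38 ± 0.32, FDR = 0.00526) were lower. Pmepa1 and Smad7, both known to be induced by the pathway, were higher at day 14, while Postn, a target of the list, was lower. Whether the level of Tgfb1 had a part in these values was not tested.

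In the spiny mouse dermis, day 21 was compared with unwounded day 0 skin (2 against 2 libraries). Of the 10 genes, 3 were higher at day 21 and none was lower, where 12% of 14481 tested genes were higher and 14.2% lower. Inhba measured 25.4 and 22.5 CPM at day 21 and 1.41 and 4.56 CPM at day 0 (8 and 31 counts), a log2 fold change of 2.93 ± 0.49 or 7.61-fold (FDR = 0.00435). It was 3.85 without day 0 replicate 2 and 2.43 without day 0 replicate 1, and called in both. It was also high in the single libraries of day 14 (11.4 CPM) and day 28 (22.2 CPM), above both day 0 libraries. Tgfbr2 measured 208 and 255 CPM at day 21 and 68.6 and 105 CPM at day 0 (1.33 ± 0.29, FDR = 0.0128), with 114 CPM at day 14 and 141 CPM at day 28. Tgfb2 measured 37.7 and 29.8 CPM against 14.6 and 17.5 CPM (0.97 ± 0.31, FDR = 0.0482), a call lost when any of the 4 libraries was left out (FDR = 0.0686 to 0.229). The Tgfbr2 call was lost without day 21 replicate 2 (1.15, FDR = 0.111).

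The other members of the spiny mouse dermis were nearer to their day 0 levels. Smad3 measured 23.9 and 30.1 CPM at day 21 and 10.4 and 17.8 CPM at day 0 (0.86 ± 0.35, FDR = 0.0972). Tgfb3 (89.6 and 61.0 against 56.3 and 40.0 CPM, 0.51 ± 0.34) and Fst (113 and 108 against 84.8 and 97.1 CPM, 0.18 ± 0.26) had an FDR of 0.294 and 0.638. Tgfb1 differed more between replicates than between days, with 57.2 and 118 CPM at day 21 and 72.8 and 114 CPM at day 0 (-0.16 ± 0.38). Its highest value, 153 CPM, was in the single day 14 library. Tgfbr1 (0.02 ± 0.28), Inhbb (0.67 ± 0.43) and Smad7 (-0.41 ± 0.48) overlapped. Keratinocyte markers summed to 10914 and 7483 CPM at day 0 and 699 and 1280 CPM at day 21 (9 of 10 called lower), skeletal muscle markers to 216 and 511 CPM against 108 and 144 CPM (5 of 6 lower), and fibroblast markers to 99594 and 67152 CPM against 118904 and 151319 CPM (4 of 10 higher). Endothelial markers summed to 139 and 290 CPM at day 0 and 530 and 713 CPM at day 21 (4 of 8 higher), with none at 0. Reads of low alignment quality made up 60.5% and 55.2% of the day 0 libraries and 44.8% and 38.0% of the day 21 libraries. The part of these in the Inhba, Tgfbr2 and Tgfb2 values was not tested.

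**Figure D5:**
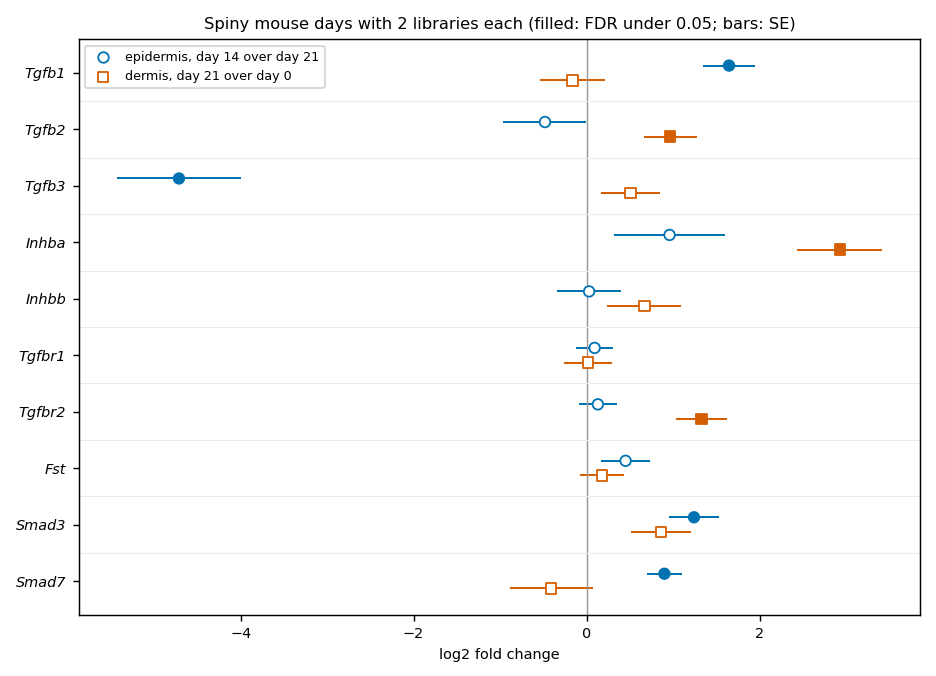
Log2 fold change (x axis) of the 10 genes (y axis) in spiny mouse epidermis, day 14 over day 21 (circles), and dermis, day 21 over day 0 (squares), 2 against 2 libraries each, with bars of 1 SE and filled symbols at an FDR under 0.05. In epidermis Tgfb1, Smad3 and Smad7 are filled to the right and Tgfb3 to the left, and in dermis Inhba, Tgfbr2 and Tgfb2 are filled to the right.

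Among the other pathway genes of the spiny mouse dermis, 50 were tested, 10 were higher at day 21 and 5 lower, with a median of 0.42 against 0.03 over all genes. Over all tested genes, 12% were higher and 14.2% lower. The target genes split, with 4 of 15 higher and 4 lower. Fn1, which encodes fibronectin, rose by 4.61 ± 0.54 (FDR = 0.000959), from 177 and 236 CPM to 4227 and 6482 CPM. The transcription factor gene Snai2 (2.74 ± 0.31, FDR = 0.000808) and Postn (2.27 ± 0.64, FDR = 0.032) rose as well. Tgfbi, a matrix protein gene named for its induction by TGF-beta, fell by 2.52 on the log2 scale (SE 0.39, FDR = 0.00302), the decoy receptor gene Bambi by 2.22 (SE 0.31, FDR = 0.00216) and the cell cycle inhibitor gene Cdkn2b by 1.81 (SE 0.47, FDR = 0.0249).

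Taking days 14 and 21 as the wound phase and days 0 and 28 as the ends of the series used all 6 libraries of a layer. In epidermis all 10 log2 fold changes were negative, with a median of -0.92 against -0.05 over all genes, but only Inhbb passed, where 4.67% of 13413 tested genes were lower and 2.56% higher. Inhbb measured 3.06 to 6.50 CPM in the 4 wound phase libraries and 30.7 and 16.2 CPM at days 0 and 28 (-1.71 ± 0.40, FDR = 0.0473). That call was lost when any of the 6 libraries was left out (FDR = 0.056 to 0.346), and the value was -1.10 without the day 0 library. Fst measured 21.0 to 40.1 CPM against 92.3 and 81.8 CPM (-0.95 ± 0.34, FDR = 0.104), and Tgfb2 0.853 to 2.54 CPM against 4.72 and 11.0 CPM (-1.62 ± 0.46, FDR = 0.0685). In this comparison library size alone moved the median of all genes by -0.47 and called 3 members, with 177 genes higher and 1156 lower against 343 and 627. Skeletal muscle markers were also higher at the ends, at 143 and 98.9 CPM against 22.9 to 50.8 CPM, and keratinocyte markers lower, at 50322 and 39283 CPM against 76554 to 88591 CPM, and their part was not tested. Of 47 other pathway genes tested, 1 was higher, Vasn, a TGF-beta binding protein gene (0.93 ± 0.22, FDR = 0.046), and 8 were lower, led by Bambi (-3.79 ± 0.75, FDR = 0.0346), the integrin gene Itgb8 (-3.25 ± 0.72, FDR = 0.0379) and Ctgf (-3.01 ± 0.50, FDR = 0.0262).

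In the dermis the same comparison called none of the 10 genes, where 0.341% of 14096 tested genes were higher in the wound phase and 1.42% lower. At an unadjusted edgeR p under 0.05, 2 members were higher and none was lower, against 7.93% and 11.5% of tested genes. DESeq2 called 1 member, Tgfb2 (1.07, FDR = 0.0422), and 2.63% of the 15551 genes it tested as higher. Tgfb2 measured 33.0, 37.7 and 29.8 CPM at days 14 and 21 against 14.6, 17.5 and 18.2 CPM at days 0 and 28 (1.09 ± 0.30, FDR = 0.108). Inhba overlapped because day 28 was as high as day 21 (1.23 ± 0.76, FDR = 0.437). Smad7 had its highest value at day 28, at 87.6 CPM, against 13.0 to 40.1 CPM in the other dermis libraries, and the epidermis had its own highest value of 76.0 CPM on the same day. Day 28 had 1 library in each layer, so this has no replicate check. The 51 other pathway genes tested had a median of 0.13 against 0.07 over all genes.

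Genes with the most similar pattern were sought for Tgfb1, Inhba and Fst, by Pearson correlation of log2(CPM + 0.5) after taking away the mean of each species and layer, over the 25 libraries, among 10572 genes that averaged 1 CPM or more in each species and layer. For Tgfb1 they were Zyx (r = 0.91), Ncdn (0.90) and Prrc2a (0.87). For Inhba they were Ctif (0.89), Wnt5a (0.88) and Chst11 (0.88), and for Fst Slc30a4 (0.84), Bmt2 (0.83) and Csgalnact2 (0.79). Within the list, Inhba was most like Smad3 (r = 0.77), while Inhba and its antagonist gene Fst had an r of -0.01 and Tgfb1 and Tgfb3 an r of 0.12. Inhba had 0 counts in KO replicate 2 and in margin epidermis replicate 1, the libraries that stood apart. The weight of these libraries in the r values of Inhba was not tested. Libraries of a group share their condition and the libraries differ in depth, so these values describe the 25 libraries only.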

How the data were processed

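Polyadenylated RNA of separated epidermis and dermis was sequenced. The deposited values are whole-number counts of reads per gene, made by the authors with STAR 2.4.1d and HTSeq 0.6.0 on mm10, per the submitters' processing notes, with no normalization. How strand was set in counting is not given in the sources used here. The 5 summary lines of each file were left out of totals. Lab mouse epidermis was read as paired ends, lab mouse dermis and all spiny mouse libraries as single ends, and the spiny mouse libraries were not strand-specific. Libraries were grouped by their labels.

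CPM was computed over all gene rows. Comparisons used the quasi-likelihood test of edgeR 4.0.16 in R 4.3.3 with TMM factors, filterByExpr (minimum count 10) and a prior count of 0.125, fitted over all genes, with Benjamini-Hochberg adjustment (FDR) over all genes tested, 2-sided, and SE derived from the F statistic. The test was tested on simulated data. Alternatives were DESeq2 1.42.0, RLE factors, library size alone, no filter, other sets of libraries and each library left out. The design had not said which quasi-likelihood estimate to use. A first fit used the estimate of edgeR 3, the default of this version, and the estimate of edgeR 4 was made the main one after the calls of that first fit had been seen, to match earlier processing of these data, so the edgeR 3 estimate is an alternative chosen after seeing the data. The 10 members and the lists were chosen with earlier results of these data known. Named were all 10 members, Twist1, the pathway genes with the largest called change (up to 3 in each direction, 5 between layers), and the 3 genes most like Tgfb1, Inhba and Fst. Lengths came from GENCODE M21 and promoters from RefSeq (7 of the 10 members). Ccn2 is listed as Ctgf. No replicate pair agreed within counting noise. Depth was 5669760 to 86532134 reads on genes. A pathway gene that the naming rule selects is not reported here.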

Additional observations from a re-analysis of the deposited data

Results flagged for a closer look

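Fst, which encodes the activin-binding follistatin, was singled out because its difference between wound center and margin was not the same in the layers of the lab mouse. The difference in epidermis minus that in dermis was 2.25 on the log2 scale (SE 0.53, edgeR FDR = 0.0445), tested as an interaction, with a median of 0.31 over all genes. Fst was higher in both center libraries than in both margin libraries in epidermis, and lower in both in dermis. Over the alternatives the value ranged from 1.76 to 2.86 and its FDR from 0.00643 to 0.24. In the only group of 5 libraries, WT center dermis, no member had a library far enough from the rest to stand out by Dixon's test in 10 tests, of which chance flags about 1 in 20. That test looks for 1 library apart, so it could not flag the difference between replicates 1 and 2 and replicates 3 to 5.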

How the results depend on the processing

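With the estimate of edgeR 3, fitted first, 0 members were called in lab epidermis (center against margin), in spiny epidermis (days 14 and 21 against 0 and 28) and in the interaction, so each of these comparisons has its only call from the choice of estimate. DESeq2 called 5, 2 and 3 there, and 1 in lab dermis, 2 in the knockout and 1 in spiny dermis (days 14 and 21 against 0 and 28), where the main test called 0. Library size alone called 0 in lab epidermis, 2 in spiny epidermis (day 14 against 21), 3 in spiny epidermis (days 14 and 21 against 0 and 28) and 7 between lab layers. RLE factors called 0 in that spiny epidermis comparison and in the interaction, and no filter 0 in the former. All 5 WT center libraries gave 1 in lab dermis.

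Leaving out 1 library gave 0 to 9 called members in lab epidermis (0 without either center library), 0 to 5 in the knockout (5 without KO replicate 1), 2 to 5 in spiny epidermis (day 14 against 21, 2 without day 21 replicate 2), 1 to 3 in spiny dermis (day 21 against 0, 1 without day 21 replicate 2), 0 to 1 in each spiny comparison of days 14 and 21 with 0 and 28, and 0 to 2 in the interaction. Over all genes, the calls were 176 in lab epidermis (0 with edgeR 3, 1551 with DESeq2, 70 to 7409 with a library left out), 125 in lab dermis (54, 737, 19 to 240, and 323 with all 5 center libraries) and 8 in the knockout (2, 520, 1 to 3357, and 190 with all 5). They were 970 in spiny epidermis (566, 2867, 0 to 1373, and 465 with no filter) and 248 in spiny dermis (141, 1539, 0 to 1722, and 375 with no filter) for days 14 and 21 against 0 and 28. They were 6002 for day 14 against 21 in epidermis (3465 to 6642), 3792 for day 21 against 0 in dermis (1299 to 5118) and 540 in the interaction (1195 with DESeq2, 167 to 1342).

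Signs turned only in values that passed no test in the main fit. With library size alone this was Tgfbr2 in lab epidermis (0.010), Inhbb in lab dermis (-0.082), Tgfbr1 (-0.46), Tgfbr2 (-0.43), Inhbb (-0.52) and Fst (-0.11) in spiny epidermis (day 14 against 21), and Tgfb2 (-0.46), Smad3 (-0.75) and Smad7 (-0.072) between lab layers. With all 5 center libraries it was Tgfb2 (1.17), Tgfb3 (0.28), Tgfbr1 (-0.087) and Smad7 (-0.11) in lab dermis, Tgfb2 (-0.34) and Fst (0.029) between lab layers and Tgfb2 (-0.81) in the interaction. Between lab layers it was also Fst in the center (0.55), and Tgfbr1 (0.051), Smad3 (-0.47) and Smad7 (-0.032) in the margin. No filter turned Inhbb in spiny epidermis (-0.031, day 14 against 21) and Tgfbr1 in spiny dermis (0.052, days 14 and 21 against 0 and 28), and RLE factors turned Tgfbr1 in spiny dermis (-0.011, day 21 against 0).

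With 1 library left out, ranges that crossed 0 were those of Tgfb2 (-0.26 to 0.69), Tgfbr1 (-1.03 to 0.18) and Tgfbr2 (-0.37 to 0.24) in lab epidermis, Tgfb2 (-0.18 to 0.0023), Tgfb3 (-0.38 to 0.0051), Tgfbr1 (-0.26 to 0.71) and Inhbb (-0.34 to 0.44) in lab dermis, and Tgfbr2 (-0.55 to 0.30) in the knockout. In spiny epidermis they were Tgfbr1 (-0.031 to 0.18), Tgfbr2 (-0.079 to 0.31), Inhbb (-0.49 to 0.47) and Fst (-0.13 to 0.88) for day 14 against 21, and Tgfb1 (-0.64 to 0.12) and Smad7 (-0.84 to 0.029) for days 14 and 21 against 0 and 28. In spiny dermis they were Tgfb1 (-0.81 to 0.31), Tgfbr1 (-0.11 to 0.18) and Smad7 (-1.01 to 0.35) for day 21 against 0, and Tgfb1 (-0.13 to 0.69), Tgfbr1 (-0.075 to 0.051) and Fst (-0.032 to 0.37) for the other. Smad3 between lab layers ranged from -0.15 to 0.41, and in the interaction Tgfb2 from -0.00046 to 0.90, Tgfbr1 from -1.23 to 0.14 and Tgfbr2 from -0.56 to 0.11. The cause of these changes was not tested. No paired analysis was possible because the labels give no replicate numbers, and those used here follow the order of the samples. Per the study's methods, the margin was the tissue left after the center was punched from a wound. Center and margin libraries may therefore share animals, but the tests treated them as independent. A lone library left in a group is assumed to vary like the others.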
